A study of Caenorhabditis elegans with 2 samples.

Results

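The binding of the nuclear hormone receptor NHR-12 was described at pks-1 and nrps-1, the genes for the 2 large enzymes of nemamide synthesis in the nematode Caenorhabditis elegans. These are 2 of the 19973 nuclear protein-coding genes in the annotation. pks-1 was chosen because it holds the only nuclear peak of the authors' reproducible set that lies in a coding exon and outside promoter windows (500 bp before to 200 bp past a 5′ end), and nrps-1 because it acts in the same pathway. pks-1 was thus selected on the signal and place of that peak, and its values below are a description with no test. The same holds for its rank in the lists from which the set was made.

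The material was whole first-stage (L1) larvae of strain OP318, which carries unc-119(ed3) III and the transgene wgIs318, with the sexes mixed. The transgene stably expresses NHR-12 with GFP and FLAG at its C terminus. DNA bound by the tagged receptor was measured by ChIP-seq, the sequencing of immunoprecipitated chromatin, in 2 biological replicates of this 1 group, with no other genotype, treatment or stage. The labels name nhr-12 as the antibody target and give no more on the antibody or on the feeding state of the larvae. Both replicates came from this single transgenic line, and an untagged strain was not analysed here.

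Nemamides are small hybrid molecules, part polyketide and part nonribosomal peptide. PKS-1 is a polyketide synthase and NRPS-1 a nonribosomal peptide synthetase. Both are assembly-line enzymes, in which a chain of domains on a single protein extends and modifies a growing molecule. In C. elegans they act in the canal-associated neurons, and larvae that lack nemamides survive less well when they hatch without food and arrest as L1. Since whole larvae were used, binding in those neurons cannot be told apart from binding in other cells.

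pks-1 (WBGene00016558) lies on the plus strand of chromosome X at 5413810 to 5441961 of ce11 (WBcel235). It spans 28.152 kb, and its longer transcript has 30 exons and 23256 bp of coding sequence for 7751 residues, the sixth longest coding sequence of the annotation. Coding exons make up 82.6% of the gene. RefSeq marks its 5′ end as incomplete, so the true start of transcription may lie further upstream. nrps-1 (WBGene00013440) lies on the plus strand of chromosome III at 11534674 to 11546712, spans 12.039 kb and has 8 exons with 8826 bp of coding sequence for 2941 residues.

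Sequences are shown of 2 places, exon 22 of pks-1 and exon 4 of nrps-1, where the region of highest rank inside each gene lay. The first is 300 bases around the midpoint of the pks-1 peak, at chrX:5429360-5429659, plus strand. The second covers exon 4 of nrps-1 and 50 bases on each side of it, at chrIII:11540302-11540601, plus strand. Both were read from the RefSeq genome sequence of WBcel235, and capitals mark coding exons.
pks-1 exons 21 and 22: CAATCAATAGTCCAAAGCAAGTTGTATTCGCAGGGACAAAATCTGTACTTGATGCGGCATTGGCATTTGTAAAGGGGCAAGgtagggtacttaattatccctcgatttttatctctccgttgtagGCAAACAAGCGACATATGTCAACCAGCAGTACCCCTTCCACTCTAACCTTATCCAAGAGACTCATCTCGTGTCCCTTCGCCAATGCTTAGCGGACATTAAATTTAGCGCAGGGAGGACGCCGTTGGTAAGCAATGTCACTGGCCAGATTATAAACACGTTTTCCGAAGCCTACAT
nrps-1 exon 4: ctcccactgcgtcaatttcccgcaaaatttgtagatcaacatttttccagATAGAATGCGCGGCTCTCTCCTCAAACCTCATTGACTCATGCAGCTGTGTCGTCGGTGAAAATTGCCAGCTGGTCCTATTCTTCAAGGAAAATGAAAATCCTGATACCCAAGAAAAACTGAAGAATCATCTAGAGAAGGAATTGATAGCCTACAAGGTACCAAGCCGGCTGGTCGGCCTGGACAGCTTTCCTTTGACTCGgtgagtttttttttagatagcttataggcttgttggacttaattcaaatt

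The authors deposited 4 lists of regions in ce11 coordinates, which were used here. A replicate 1 list held 26878 regions and a replicate 2 list 30000. A joint list of 3817 regions was called on both replicates together, and 164 of these formed the set past the authors' threshold on the irreproducible discovery rate (IDR). The replicate and joint lists hold background regions as well as peaks, so a listing alone is not a peak. Each region carries a signal value, a score whose scale is not stated, given by the authors' caller, which was compared only within a list. Read counts were not in the lists, so the depth was unknown. A region was assigned to a gene when its midpoint lay between 2 kb upstream of the 5′ end and the 3′ end. The replicate 1 list included regions of the mitochondrial genome and the replicate 2 list none, and ranks below are over all regions of a list.

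A single strong peak stood in the middle of pks-1. In the IDR set and the joint list it spanned 5429322 to 5429697 with a signal of 62.6, rank 53 of 3817 joint regions. Replicate 1 listed it with a signal of 32.0 at rank 45 of 26878. Replicate 2 listed it with a signal of 25.8 at rank 88 of 30000. The midpoints of the joint and replicate 1 regions were at the same base, 5429510, and that of replicate 2 lay 13 bp before it, at 5429497. The peak was among the top 0.293% of regions in each replicate list, and both replicates placed it at the same site. The IDR set was derived from these lists, so this agreement is part of how the peak was chosen and is given as a value.

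Among the nuclear peaks of the IDR set, the pks-1 peak ranked 38 of 146, and 17 of the 29 on the X chromosome. The set ended at a signal of 37.05, and the strongest nuclear joint region left out of it, in the windows of gmps-1 and cap-2, also had 37.05 to this precision. Over the whole of X these lists held 0.00164 IDR peaks and 0.0397 joint regions per kb. The nearest other IDR peaks were 1220 kb away towards lower coordinates and 372 kb towards higher ones. The nearest other joint regions were 103 kb and 46.3 kb away, with signals of 17.8 and 19.8.

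**Figure D1:**
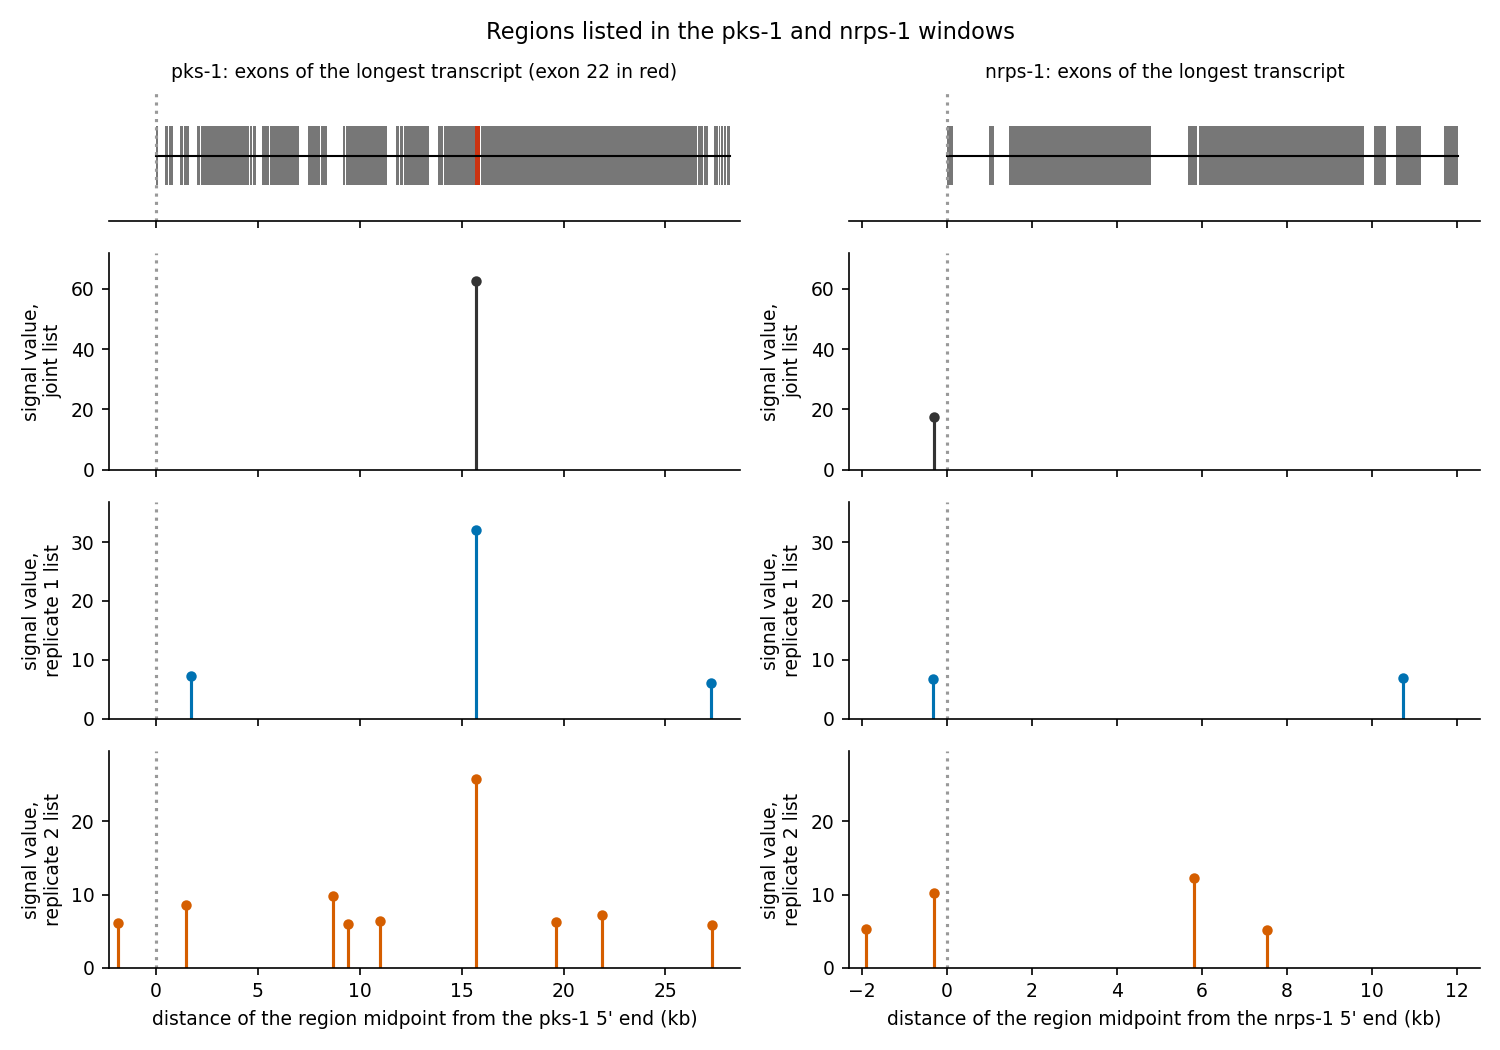
Regions listed in the windows of pks-1 (left) and nrps-1 (right) in the joint, replicate 1 and replicate 2 lists, against the distance of the midpoint from the 5′ end in kb, with the exons of the longest transcript above. Stem height is the signal value, which has its own scale in each list. In all 3 lists the tallest stem of pks-1 stands at exon 22, with signals of 62.6, 32.0 and 25.8, while the stems of nrps-1 stay at or below 17.5.

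The map of both genes shows the pks-1 peak far from the 5′ end and over exon 22, which is marked in red. Its midpoint lay 15700 bp downstream of the annotated 5′ end, after 55.8% of the gene and 49.5% of the coding sequence. Exon 22 is 202 bp long, and the midpoint fell 25 bp after its first base. The 376 bp of the peak covered the last 119 bp of exon 21, the whole of the 44-bp intron 21, all of exon 22 and 11 bp of intron 22. These exon parts encode residues 3786 to 3893 of the 7751. The next exon, the longest of the gene with 10633 bp, held no region of the joint or replicate 1 list and 2 of the replicate 2 list, with signals of 6.24 and 7.28.

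The sequence under the peak was richer in G and C than most of the gene. It had 45.7% GC, against 39.3% over all pks-1 exons and 30.2% over its introns. Exon 22 alone had 48.0%, while single exons ran from 35.1% to 50.3%. The median was 39.1% for the 146 nuclear IDR peaks (interquartile range 34.8% to 45.9%) and 36.7% for the 388 joint regions with a midpoint in a coding exon. The peak was thus within the range of the other IDR peaks, near its upper quartile. A blastn search found no second copy of the peak sequence in the nuclear genome at an E-value of 0.001 or below, and 18 of its bases were soft-masked as repeats in the reference.

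Simple matches to sites of nuclear receptors were few. Receptors of this class bind DNA through zinc fingers at short sites such as AGGTCA or the variant AGTTCA, and HNF4, the vertebrate receptor to which much of the nematode family is related, at sites that contain CAAAGTC. These 3 patterns were searched on both strands in whole 376-bp regions. None of them contains another, but matches can share bases, since AGGTCA and AGTTCA end in CA and CAAAGTC begins with it. CAAAGTC was chosen after the pks-1 sequence had been seen. The pks-1 peak held no AGGTCA, which occurred in 9.59% of nuclear IDR peaks and 8.27% of nuclear joint regions, and no AGTTCA, which occurred in 10.3% and 20.7%. It held a single CAAAGTC on the plus strand at chrX:5429343-5429349, which ended 161 bp before the midpoint and lies outside the bases printed. CAAAGTC occurred in 8 of 146 nuclear IDR peaks (5.48%) and 134 of 3798 nuclear joint regions (3.53%). Of the 388 joint regions with a midpoint in a coding exon, 21 held CAAAGTC (5.41%), 29 AGGTCA (7.47%) and 87 AGTTCA (22.4%).

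Other parts of pks-1 held only weak regions, most of them listed in replicate 2. Replicate 1 listed a region in intron 5 with a signal of 7.19 at rank 18051 and another in intron 25 with a signal of 6.03 at rank 26437. Replicate 2 listed 8 regions beside the peak, with signals from 5.80 to 9.88, against 25.8 for the peak. The strongest of these 8, in intron 14, ranked 4407 of 30000. One of them lay 1879 bp upstream of the 5′ end, inside C41A3.2, a gene on the opposite strand whose 5′ part overlaps the start of pks-1. In its promoter window pks-1 had no region in any of the 4 lists.

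Of the 3 regions of replicate 1 in pks-1, 2 had a region of replicate 2 within 100 bp, the peak and the weak one in intron 25. With any overlap in place of 100 bp, all 3 did. In genes of 0.5 to 2 times its span 438 of 3271 replicate 1 regions did (13.4%), and over all nuclear regions 3824 of 26857 (14.2%). With 3 regions, 1 of them the peak that selected the gene, this count says little about pks-1. In replicate 2, 6 of the 9 regions had their midpoint in an exon (66.7%, exact Clopper-Pearson 95% interval 29.9% to 92.5%, counting error only), where coding exons make up 77.1% of the window. In replicate 1 it was 1 of 3. The 3 noncoding RNA genes inside pks-1, C41A3.5, C41A3.6 and C41A3.7, all on the opposite strand, overlapped no region in any list.

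Regions over coding exons rarely reached a high signal, and pks-1 held the strongest of them in every list. The joint list had 388 nuclear regions centred on coding exons, of which the pks-1 peak had a signal of 62.6. The next was 38.3, at pqn-51 and K11D12.14, also an IDR peak but inside a promoter window. Outside promoter windows the next of the 313 were F58G1.7 with 34.1 and dos-3, a gene for a Notch co-ligand, with 32.2, neither in the IDR set. In replicate 1, pks-1 with 32.0 was followed by daf-9, with 19.6, among 3410 such regions. In replicate 2, pks-1 with 25.8 was followed by dhc-4, a gene for a dynein heavy chain, with 21.9 and hsp-1, an HSP70 gene, with 20.1 among 5094. The gap to the next region was smaller in replicate 2 than in the other lists, each on its own scale. These orders follow from the choice of the gene and are given as values.

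**Figure D2:**
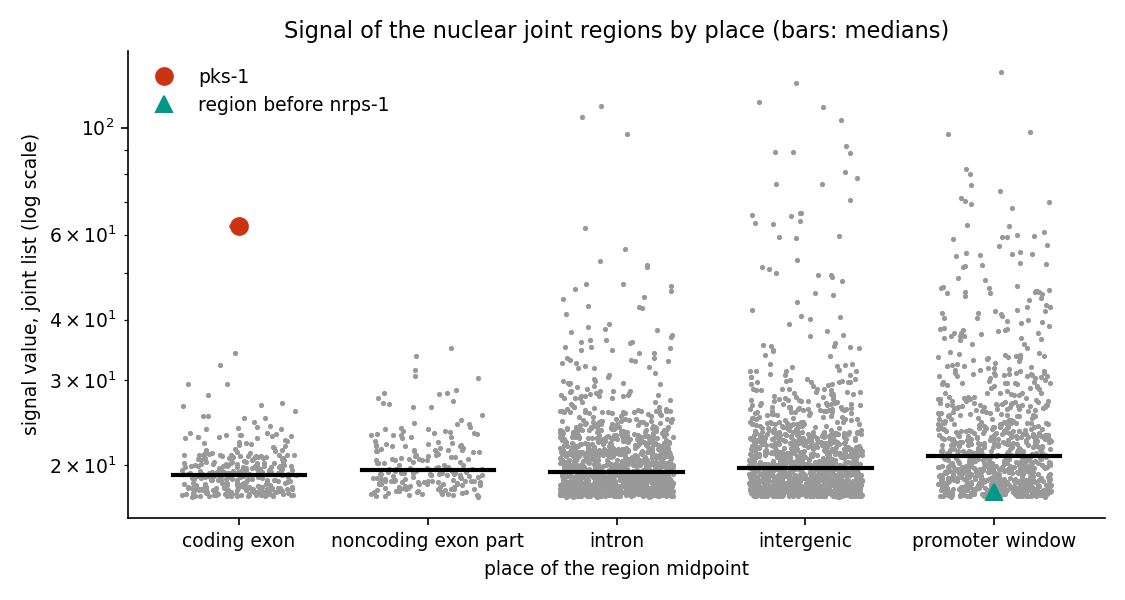
Signal of each nuclear joint region (log scale) by the place of its midpoint, with promoter windows assigned first and black bars for medians. pks-1 (red circle) has 62.6 where the other coding-exon regions outside promoter windows reach 34.1, and the region before nrps-1 (green triangle) has 17.5, near the bottom of the promoter windows.

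In the plot of signal by place the medians differ little, from 19.1 in coding exons outside promoter windows to 20.8 in promoter windows. With promoter windows assigned first, 31.9% of these regions were intergenic, 22.4% in promoter windows and 32.4% in introns. A further 8.24% were in coding exons and 5.06% in noncoding exon parts. Above the pks-1 signal in the joint list were 20 intergenic regions, 14 in promoter windows, 3 in introns and 0 in coding exons. The 0 in coding exons follows from the choice of pks-1 and is given as a value. On X 13 of 299 intergenic regions lay above it, 2 of 220 intronic ones and 1 of 94 in promoter windows.

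nrps-1 held no IDR peak. Its single joint region had a signal of 17.5 and ranked 3469 of 3817, near the bottom of that list, and spanned 11534185 to 11534560. Replicate 1 listed the site with a signal of 6.70 at rank 21374 of 26878, and replicate 2 with a signal of 10.3 at rank 3651 of 30000. The 3 midpoints lay 301, 322 and 299 bp upstream of the 5′ end of nrps-1. Both replicates thus listed this place, and its rank was low in replicate 1 and in the joint list.

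The site before nrps-1 belongs by position to another gene as well. xpb-1 (WBGene00013441), the gene for the helicase XPB of the general transcription factor TFIIH, lies on the same strand at 11526657 to 11534595 and ends 78 bp before nrps-1 begins. The joint midpoint fell in exon 7 of xpb-1, its last, 76 bp after the start of that exon and 64 bp before the end of the coding sequence. The part of the joint region up to the end of the annotated coding sequence, at chrIII:11534185-11534437, plus strand, is shown because it holds that midpoint, with the coding exon in capitals.
xpb-1 intron 6 and exon 7: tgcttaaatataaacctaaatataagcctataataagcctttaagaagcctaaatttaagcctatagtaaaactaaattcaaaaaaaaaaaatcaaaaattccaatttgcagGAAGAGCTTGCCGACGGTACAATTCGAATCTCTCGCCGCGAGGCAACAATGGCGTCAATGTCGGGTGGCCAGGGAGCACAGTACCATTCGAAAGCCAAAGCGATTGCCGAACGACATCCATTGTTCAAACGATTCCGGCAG
This region had 36.7% GC and 126 soft-masked bases, against 45.7% and 18 in the pks-1 peak. The blastn search found 8 further partial matches to it in the nuclear genome, the longest of 47 bp. None of the 3 receptor patterns occurred in it.

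Inside the body of nrps-1 the replicates listed different places. Replicate 2 had a region over exon 4, 5815 bp downstream of the 5′ end, with a signal of 12.3 at rank 1538, the highest rank of any nrps-1 region. Exon 4 is 200 bp long, where the median exon of nrps-1 has 310 bp, and its sequence is printed above. Exon 22 under the pks-1 peak, with 202 bp, is near the median pks-1 exon of 194 bp. Replicate 1 listed no region over exon 4 of nrps-1. Replicate 2 also listed one in exon 5 with a signal of 5.17 and one 1904 bp upstream, inside xpb-1, with 5.31. The only region of replicate 1 in the body was in exon 7, 10722 bp downstream, with a signal of 6.93 at rank 19799. Neither place in the body was in the joint list, so a single replicate stands behind each.

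**Figure D3:**
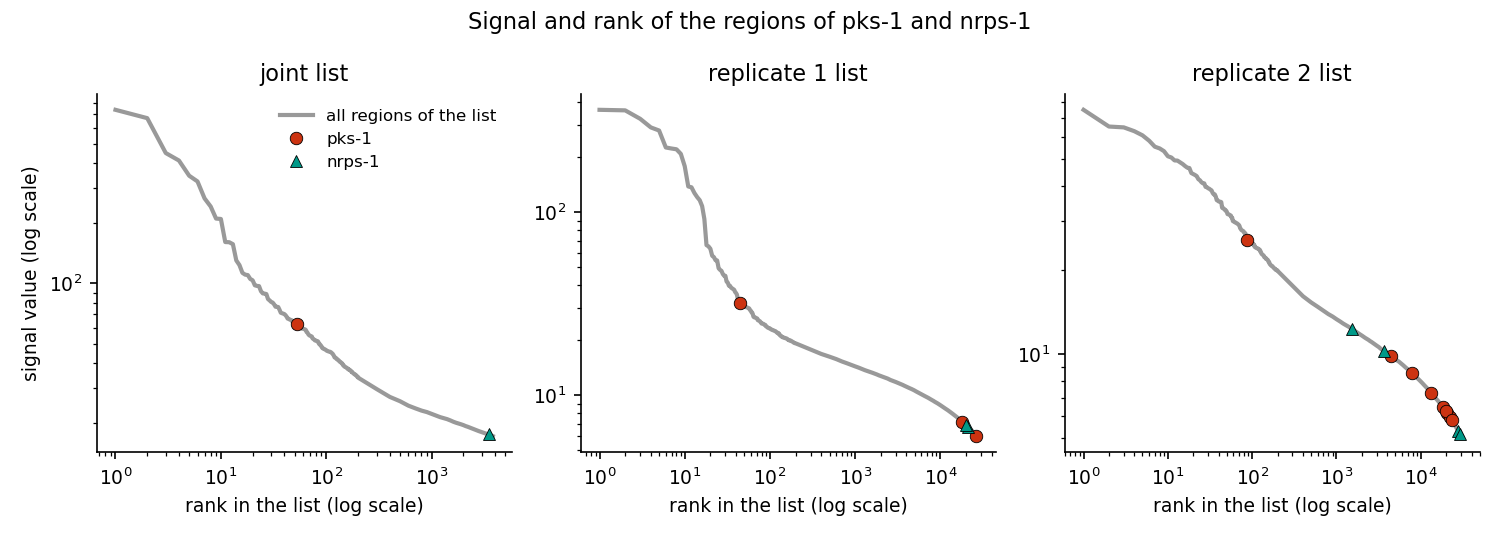
Signal against rank (both log scales) for all regions of the joint, replicate 1 and replicate 2 lists (grey line), with the regions of pks-1 (red circles) and nrps-1 (green triangles). The pks-1 peak stands at ranks 53, 45 and 88, while the highest nrps-1 region of each list stands at ranks 3469, 19799 and 1538.

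The plot of signal against rank sets both genes side by side. The peak of pks-1 stood on the steep early part of each curve. All other regions of pks-1 and every region of nrps-1 stood on the long tail, where most regions of the lists lie.

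In number of regions per kb neither gene was crowded. pks-1 had 1 joint region in its window of 30.152 kb, or 0.0332 per kb. In replicate 1 it had 3 (0.0995 per kb) and in replicate 2 it had 9 (0.298 per kb). nrps-1 had 1 joint region in 14.039 kb (0.0712 per kb), 2 in replicate 1 (0.142 per kb) and 4 in replicate 2 (0.285 per kb). Over the whole of X the lists held 0.0397, 0.275 and 0.318 regions per kb, and over chromosome III 0.0424, 0.282 and 0.312. In replicate 1 the values of both genes were thus below the average of their chromosome, and in replicate 2 close to it. Counts this small carry wide intervals: for pks-1 the exact Poisson 95% interval ran from 0.0205 to 0.291 per kb in replicate 1 and from 0.136 to 0.567 in replicate 2. For nrps-1 it ran from 0.0173 to 0.515 in replicate 1 and from 0.0776 to 0.730 in replicate 2. Each of these intervals includes the average of the chromosome in that list.

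An IDR peak was uncommon, though less so in long genes than over all genes, and most long genes had regions of the replicate lists. pks-1 had an IDR peak in its window, as did 13 of 475 other genes with 0.5 to 2 times its span (2.74%) and 0.956% of all nuclear protein-coding genes. This count was used to choose pks-1, and nothing is read from it. None of the 70 such genes on X (0%) and none of the 29 genes with 0.5 to 2 times its coding length had one. nrps-1 had none, as against 41 of 2253 genes of similar span (1.82%). At least 1 joint region was present in 53.1% of genes of similar span to pks-1, in 36.2% of those like nrps-1 and in 16.8% of all genes. In the replicate 1 list the shares were 98.3%, 92.9% and 66.9%, and in the replicate 2 list 98.9%, 96.1% and 72.9%. A listing of either gene in these 3 lists was therefore what most or many genes of their size showed.

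Among genes of similar span pks-1 was sparser in replicate 1 and in the middle in replicate 2. In replicate 1 its density was above that of 23 of the 475 genes (4.84%), whose median was 0.297 regions per kb. In replicate 2 it was above that of 233 (49.1%), with a median of 0.303, and in the joint list above that of 244 (51.4%), with a median of 0.0300. The 29 genes of similar coding length had a median of 0.148 in replicate 1 and 0.206 in replicate 2, and pks-1 was above 5 and 22 of them. At least 1 region was present in 31% of these 29 in the joint list, 93.1% in replicate 1 and 100% in replicate 2. For nrps-1 the shares of the 2253 genes of similar span with a lower density were 22.8% in replicate 1, 46.6% in replicate 2 and 70.2% in the joint list. The joint region of pks-1 is the peak that selected it, so its joint share is given as a value. No joint region was listed for 223 of the 475 genes, and only 815 of the 2253 had one. The joint shares of both genes thus mostly count genes without any joint region. The order of these shares differs between the lists, so no single place among long genes can be given to either gene.

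**Figure D4:**
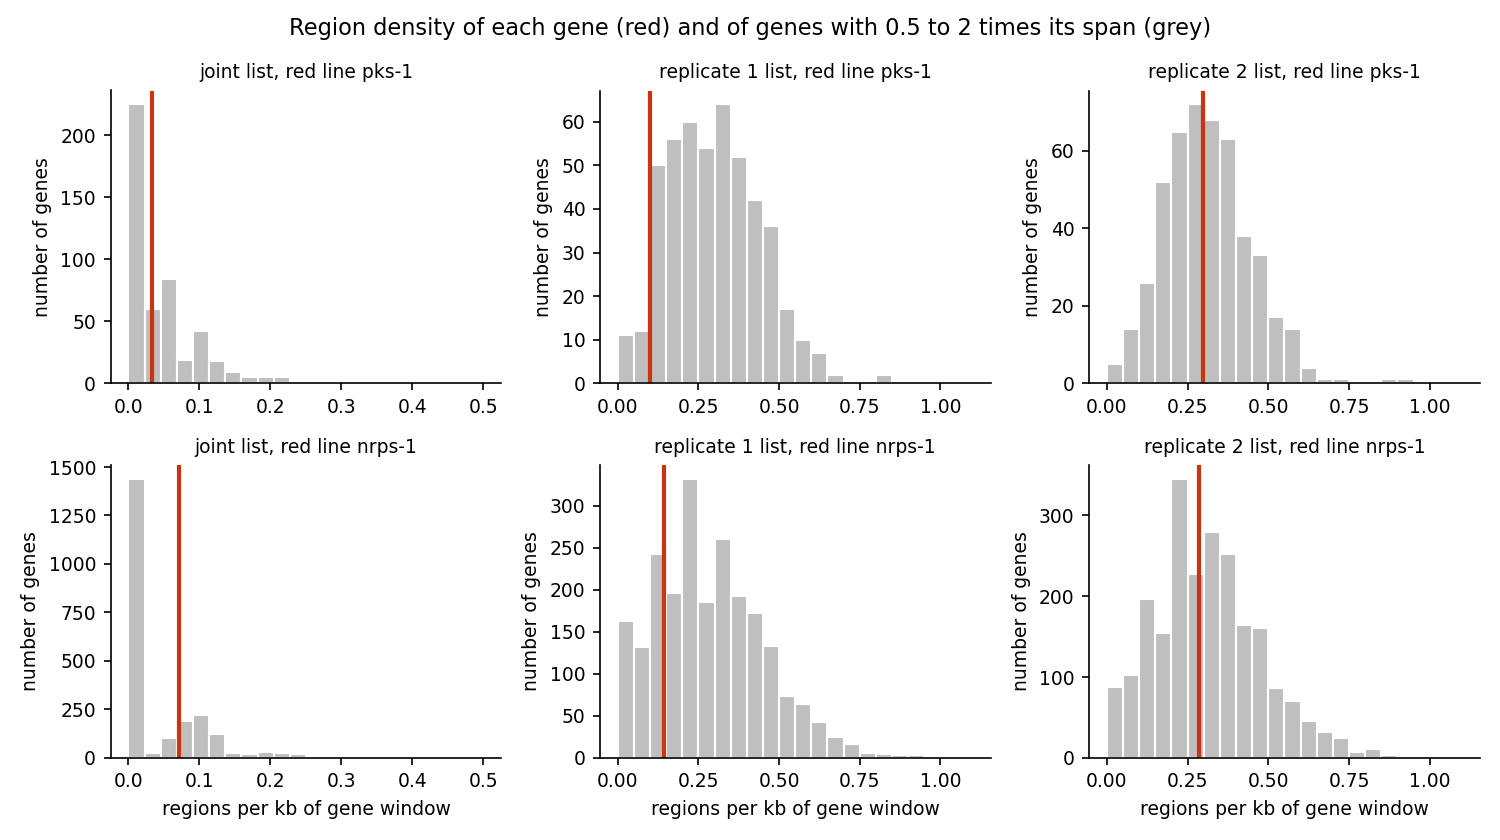
Number of genes by regions per kb of gene window, for genes with 0.5 to 2 times the span of pks-1 (top, n = 475) or nrps-1 (bottom, n = 2253), in the joint, replicate 1 and replicate 2 lists. The red line is the gene itself: pks-1 has 0.0332, 0.0995 and 0.298 regions per kb and nrps-1 0.0712, 0.142 and 0.285.

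In the histograms of density the red line of pks-1 lies at the left edge in replicate 1 and in the centre in replicate 2. The densest genes of similar span to pks-1 in the joint list were ndx-8 with 6 regions (0.373 per kb), rbc-2 with 6 (0.315 per kb) and zfp-1 with 5 (0.298 per kb). Those like nrps-1 were kel-3 with 4 (0.469 per kb), dmsr-6 with 5 (0.442 per kb) and ZK470.2 with 6 (0.408 per kb).

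The pattern of pks-1, a strongest joint region inside an own coding exon, was also looked for in long genes. Of the 252 genes of similar span with a joint region, 11 had it. Over the nuclear joint list, 388 of 3798 regions had their midpoint in a coding exon, with promoter windows not excluded in either count. The first count takes only the strongest region of each gene and the second takes all regions, so their shares differ in measure. Of the 11 genes, unc-89, which encodes a giant protein of the muscle M-line, had the highest signal, with 25.1 at rank 549. Next were T05A1.5 with 23.9 at rank 676 and ckk-1, a gene for a kinase of calmodulin-dependent kinases, with 22.3 at rank 973. All 3 were outside promoter windows and far below the pks-1 peak, which had 62.6 at rank 53. Likeness here rests on the place of 1 region per gene in 1 list. The genes were matched on span and not on coding content. pks-1 was chosen for the place and signal of its peak, so its standing here follows from that choice and is given as a value.

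Other genes of nemamide synthesis had no joint region. pkal-1 (WBGene00020634, acs-9 in Ensembl), an enzyme that passes the polyketide part on to NRPS-1, had 1 region in replicate 1, with a signal of 10.9 at rank 4471, and none in replicate 2. nemt-1 (WBGene00009879), which encodes a protein with a methyltransferase domain, had 1 region in replicate 1 with a signal of 9.19 at rank 8716, and none in replicate 2. nemt-1 was added to the list after the annotation had been read. nrpt-1 could not be matched by symbol and was not used here. Over these 4 genes, the only IDR peak was that of pks-1, by which it was chosen. A joint region was listed for 2 of the 4, pks-1 and nrps-1, against 16.8% of all genes. A replicate 1 region was listed for 4, against 66.9%, and a replicate 2 region for 2, again pks-1 and nrps-1, against 72.9%. In genes of span like pks-1 and nrps-1 the joint shares were 53.1% and 36.2%. The listing of pks-1 follows from its choice by its peak, so nothing is read from these counts.

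The list of genes used in the canal-associated neurons, where nemamides are made, held 5 genes. These were the homeobox genes ceh-10 and ceh-23, the migration gene vab-8, kal-1 and the monoamine transporter gene cat-1. None had an IDR peak, where 0.956% of all genes had one. All 5 had a region in each replicate list, where 66.9% of all genes had one in replicate 1 and 72.9% in replicate 2. vab-8 and kal-1 span 12.6 kb and 13.6 kb. Of genes of similar span to nrps-1, 92.9% had a region in replicate 1 and 96.1% in replicate 2. With 5 genes these counts say little. Only kal-1 had a joint region, 204 bp upstream of its 5′ end, with a signal of 18.7 at rank 2462. The share of 1 of 5 is close to the 16.8% of all genes.

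The list of genes of starved L1 survival and insulin signalling held 18 genes. It was chosen with earlier results of these data known, so no excess is read from its counts. Of the 18, 1 had an IDR peak and 9 a joint region, against 0.956% and 16.8% of all genes. In replicate 1, 15 had a region, against 66.9%, and in replicate 2, 16, against 72.9%. These genes had a median span of 4.77 kb, against 2.03 kb over all genes. Longer genes held more regions, and the part of length in these counts was not tested. The IDR peak lay in an intron of daf-16, the FOXO factor of the pathway, with a signal of 51.8 at rank 79. The strongest region of the daf-16 window had 19.1 at rank 207 in replicate 1 and 29.4 at rank 67 in replicate 2. The next were hlh-30 (TFEB) with a joint signal of 29.5, the kinase gene pdk-1 with 26.4 and aak-2, a catalytic subunit gene of AMP-activated kinase, with 22.8.

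Joint regions were also listed for akt-1 with 21.4, daf-9 with 20.5, daf-12 with 20.5 and daf-2, the insulin receptor gene, with 18.5. daf-12 is a nuclear hormone receptor gene and daf-9 the cytochrome P450 gene that makes its ligands. The daf-9 region, like that of pks-1, lay in a coding exon. age-1, akt-2, sgk-1, aak-1, daf-28, ins-3, ins-4, ins-7 and cki-1 had none.

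The last list held 13 genes of fatty acid synthesis, which uses the same chain-building chemistry as a polyketide synthase. None of the 13 had an IDR peak, where 0.956% of all genes had one. A joint region was listed for 1, where 16.8% of all genes had one. This was pod-2, which encodes acetyl-CoA carboxylase, in an intron with a signal of 17.8 at rank 3193. With 13 genes these counts say little. In replicate 1, 9 of the 13 had a region, against 66.9% of all genes, and in replicate 2, 11 of the 13, against 72.9%. fasn-1, the fatty acid synthase gene and the nearest of them in kind to pks-1, had 3 regions in replicate 1 and 5 in replicate 2, the strongest at ranks 2446 and 5476.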

How the data were processed

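Per the labels, ChIP-seq was done on 2 biological replicates of L1 larvae. The deposited lists give for each region a signal score by the authors' peak caller. Per the deposited description of file derivations, they were called with 1 control file, and the IDR set was derived from the joint and replicate lists. The aligner, the caller and their versions are not given in the sources used here. The ce10 lists were not used.

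From these lists, midpoints were counted in gene windows of the Ensembl release 115 annotation of WBcel235, whose chromosomes contain all ce11 regions. Similar long genes had 0.5 to 2 times the span of a gene. No test was run: with 1 group the results are counts, ranks and densities, with exact Clopper-Pearson or Poisson 95% intervals that cover counting error only. The counting was tested on simulated data with planted regions. Python 3.11.15, pandas 2.3.3, scipy 1.17.1, matplotlib 3.10.9 and blastn 2.17.0 were used.

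The genes and gene lists were chosen with earlier results of these data known. Genes were named if they (or their promoter) lay at a region of pks-1 or nrps-1, had the 3 highest joint densities or coding-exon signals among similar genes, or were list members with a joint region. One such list member is not reported here. The genes with the strongest coding-exon regions, and list members without a joint region, were named after their values were seen.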

Additional observations from a re-analysis of the deposited data

How the results depend on the processing

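The lists differ in length, so counts move with the list used. Without replicate 1 or replicate 2 (the other replicate's list alone), the joint count of 1 region ran from 3 to 9 for pks-1 (0.0995 to 0.298 per kb) and from 2 to 4 for nrps-1 (0.142 to 0.285 per kb), and the share of similar genes of lower density from 4.84% to 49.1% and from 22.8% to 46.6%. With genes of similar coding length these shares were 79.3% for pks-1 and 79.5% for nrps-1 in the joint list. The joint share of pks-1 rests on the peak that selected it and is given as a value. With only joint regions at or above the list's median signal, or with no upstream window, nrps-1 had 0 regions (0 per kb) and pks-1 still 1. Within 50 bp, or among regions at or above the median signal, 1 replicate 1 region of pks-1 matched replicate 2 in place of 2, and at or above the median 0 of nrps-1 did in place of 1. With any overlap, all 3 regions of pks-1 matched. In all, 17 values of these results moved and 33 did not, by a bound of 1.5 times for counts and of counting error for densities, which is wide. No paired analysis was possible because there was 1 group only. Read depth was unknown, and both replicates are needed for the pks-1 peak to count as repeated.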
